A study of Homo sapiens with 4 samples.

Results

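The replication-dependent copies of histones H2A, H2B and H4 were taken as every transcript whose GENCODE 29 symbol begins with HIST1, HIST2, HIST3 or HIST4 and continues with H2A, H2B or H4. The annotation holds 65 genes with such a symbol, 50 of them protein coding and 15 pseudogenes. Of these, 44 were listed in at least 1 library, among 16292 transcripts in all: 14 copies of H2A, 18 of H2B and 12 of H4. All 44 are protein coding, 41 were listed in all 4 libraries, and 40 consist of 1 exon. On GRCh38, 37 lie on chromosome 6, 6 on chromosome 1, and HIST4H4 lies on chromosome 12. The protein-coding copies HIST1H2AJ, HIST1H4K, HIST2H2AA3, HIST2H2AA4, HIST2H4A and HIST2H4B were listed in none of the 4 libraries used here.

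Ribosome footprints were sequenced from HEK293, an established human embryonic kidney cell line, with 1 library in each of 4 groups: wild type without erythromycin, wild type with it, RPL4 mutant without it and RPL4 mutant with it. RPL4 is a large-subunit protein that lines the exit tunnel of the cytosolic ribosome, and erythromycin is a macrolide antibiotic that binds the tunnel of bacterial ribosomes. Per the labels' protocols, all lines were stable lines making GFP, wild type RPL4 or a Δloop mutant of it, infected with lentivirus for a hairpin RNA that targets RPL4 or a scrambled hairpin, and cells were held with cycloheximide (CHX) or lactimidomycin (LTM). Which of these each library had is not in the labels, nor is the erythromycin dose. Depth was 2965243 and 2555613 reads in untreated and treated wild type, and 604506 and 993461 in the untreated and treated mutant. RPL4 itself (chromosome 15, 66498015 to 66504883) stood at 2515, 2586, 1707 and 1439 RPKM (reads scaled by coding length and library depth) in the same order, and over both treatments it fell by 0.70 on the log2 scale in the mutant (SE 0.15, limma, adjusted p = 0.0182). That call was lost without the variance trend (0.438) and with genotype alone in the model (0.108). RPL4 made from a transgene would be counted in these values as well, so they test the labels only in part. Of 8 markers of HEK293 cells, 4 were above 20 RPKM in all libraries. The summed level of 15 markers of blood, liver, muscle, fibroblasts and endothelium was 7.55 to 22.8 RPKM, with PTPRC, LYZ and DCN listed at 0 throughout.

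Core histones wrap DNA into nucleosomes, in which dimers of H2A with H2B sit on a tetramer of H3 with H4. Replication-dependent copies lie in clusters, are transcribed in S phase to coat newly made DNA, and give mRNAs that mostly end in a stem-loop in place of a poly(A) tail. Many H2A and H2B copies lie head to head and share the DNA between their starts. Copies of a class encode the same or nearly the same protein through different codons, so a footprint can be placed on 1 copy only where the codons differ.

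The first coding bases of H4 show how far synonymous bases separate the copies. All sequences are GRCh38 positions of GENCODE 29 coding sequence, printed 5′ to 3′ on the coding strand. The lines give coding bases 1 to 60 of the 4 copies with the highest levels, of the low copy HIST1H4I, and of HIST1H4J and HIST1H4K, and capitals mark bases that differ from HIST1H4C (chr6:26103948-26104007, plus strand).
HIST1H4C: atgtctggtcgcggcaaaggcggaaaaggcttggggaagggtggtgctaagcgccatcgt
HIST1H4H: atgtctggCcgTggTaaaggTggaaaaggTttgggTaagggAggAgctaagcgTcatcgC
HIST1H4B: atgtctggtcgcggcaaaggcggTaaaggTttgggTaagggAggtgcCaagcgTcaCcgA
HIST1H4E: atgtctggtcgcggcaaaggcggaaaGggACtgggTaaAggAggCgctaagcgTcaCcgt
HIST1H4I: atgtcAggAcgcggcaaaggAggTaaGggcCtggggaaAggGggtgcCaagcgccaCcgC
HIST1H4J: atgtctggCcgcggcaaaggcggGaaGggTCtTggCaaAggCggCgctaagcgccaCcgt
HIST1H4K: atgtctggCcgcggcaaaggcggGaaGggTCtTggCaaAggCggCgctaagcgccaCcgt
HIST1H4H (chr6:26285440-26285499, minus strand) differed from HIST1H4C at 10 of the 60 bases, HIST1H4B (chr6:26027193-26027252, minus) at 8 and HIST1H4E (chr6:26204645-26204704, plus) at 9. HIST1H4I (chr6:27139309-27139368, plus), HIST1H4J (chr6:27824125-27824184, plus) and HIST1H4K (chr6:27831468-27831527, minus) each differed at 11. HIST1H4J and HIST1H4K were the same at every coding base.

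HIST1H2AG and HIST1H2AI encode the same H2A protein and are shown because both were high in the mutant with erythromycin. The lines give coding bases 25 to 84, a stretch picked because HIST1H2AG and HIST1H2AI differ most there among those searched. Over all 393 coding bases these 2 copies differ at 29. Capitals mark bases that differ from HIST1H2AG.
HIST1H2AG: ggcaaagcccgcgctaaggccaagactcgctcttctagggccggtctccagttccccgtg
HIST1H2AI: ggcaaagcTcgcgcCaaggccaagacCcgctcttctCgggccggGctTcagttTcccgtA
HIST1H2AJ: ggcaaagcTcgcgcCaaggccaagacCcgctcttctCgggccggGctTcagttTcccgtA
HIST1H2AI (chr6:27808234-27808293, plus strand) and HIST1H2AJ (chr6:27814657-27814716, minus) had the same 60 bases here, and both differed from HIST1H2AG (chr6:27133096-27133155, plus) at 8 of them.

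The classes differed in how far their copies can be told apart. Among the 15 protein-coding H4 genes of the annotation there were 13 distinct coding sequences and 2 distinct proteins: 14 genes encode an identical protein, and HIST1H4G differs. The 17 H2A genes had 16 coding sequences and 11 proteins, and the 18 H2B genes had 18 coding sequences and 14 proteins. The median identity of coding sequence between copies was 83.3% in H4, 85.0% in H2A and 88.2% in H2B. The least alike pair was at 71.8% in H4 and 58.7% in H2B. That H2B pair was HIST1H2BA with 384 coding bases and HIST1H2BN with 501. Identity was taken over the longer sequence, so the value reflects length as well. Among H2B pairs without HIST1H2BN the lowest was 73.3%. Of all stretches of 28 bases, about a footprint's length, the median gene shared 4.56% with the coding sequence of another gene in H4, 25.1% in H2A and 32.9% in H2B. Over the listed copies alone the medians were 4.15%, 18.7% and 32.9%, since the 6 unlisted ones shared 86.4% to 100%. HIST1H4J shared 100% (with HIST1H4K), HIST1H2AD 98.4% (nearly all with an overlapping gene model), HIST1H2BK 88.1% and HIST1H2AI 84.4% (mostly with HIST1H2AJ). How the authors' counting divided or dropped reads that fit several genes is not given in the sources used here, so the levels of these 4 copies are uncertain, as are those of HIST2H2BE (64.7%), HIST1H2BL (60.2%) and HIST2H2BF (59.8%). The other 37 listed copies shared at most 50% of their windows.

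Footprints on the 44 copies made up 3.29% of reads in wild type, 3.001% in wild type with erythromycin, 2.75% in the mutant and 2.92% in the mutant with erythromycin. H2B took 1.28%, 1.10%, 1.05% and 1.07% of reads in that order, H2A 0.993%, 0.899%, 0.865% and 0.935%, and H4 1.01%, 1.00%, 0.839% and 0.917%. In each class the untreated wild type library was the highest and the untreated mutant library the lowest. The 95% Wilson intervals were widest in the mutant without drug, for instance 0.816% to 0.862% for H4, and like all intervals here they cover counting error only. Per length, summed over copies, H4 was higher than H2A in every library, 1.22 to 1.40 times in RPKM. H2A was at 0.758 to 0.855 of H2B, and H4 at 0.971 to 1.13 of H2B. The listed H3 copies together were at 0.557 to 0.681 of H4 and had the lowest sum of the core classes in every library. Copies that were not listed are outside these sums.

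Within each class the copies fell into a high and a low set with no copy in between. In every library 33 copies were at 259.8 RPKM or more, up to 11238 RPKM, and they comprised 13 of H2A, 12 of H2B and 8 of H4. The other 11 were at 26.4 RPKM or less in every library and held at most 0.118% of the reads of the 44. They were HIST1H2AA, HIST1H2BA, HIST1H2BB, HIST1H2BE, HIST1H2BH, HIST1H2BI, HIST1H2BM, HIST1H4F, HIST1H4G, HIST1H4I and HIST1H4L. HIST1H2AA and HIST1H2BA, which encode the testis histones of their classes, did not exceed 5.93 and 5.24 RPKM. HIST1H4G, the divergent H4, was at 2.63 RPKM in wild type with erythromycin and listed in none of the other libraries.

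**Figure D1:**
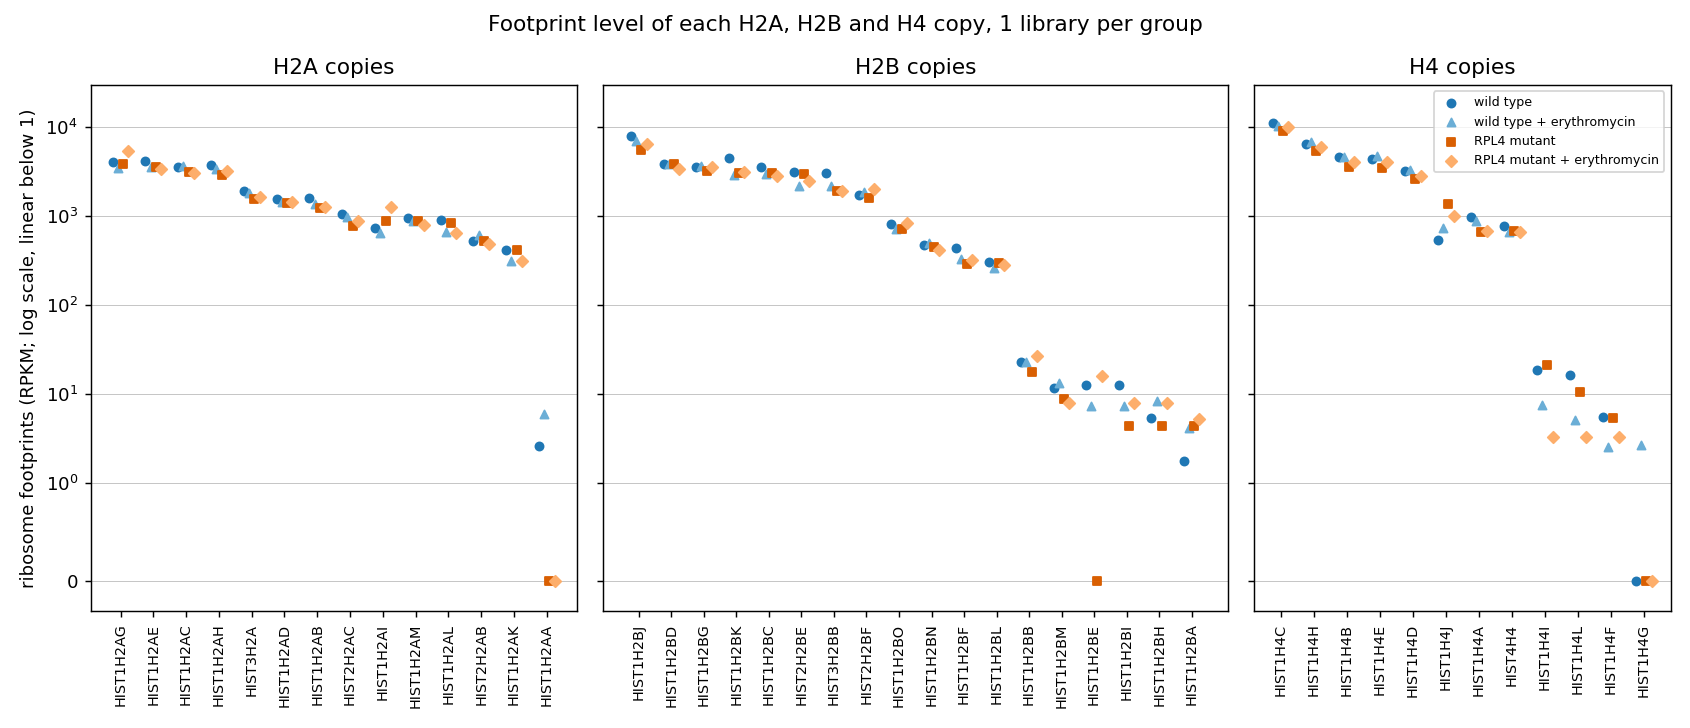
Ribosome footprint level (RPKM, log axis, linear below 1) of each of the 44 listed copies, ordered by mean level within H2A, H2B and H4, with 1 point per library. In each class a gap separates copies at 259.8 RPKM or more from those at 26.4 RPKM or less.

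A few copies carried most of each class. In H4 the 4 copies with the highest mean level, HIST1H4C, HIST1H4H, HIST1H4B and HIST1H4E, held 82.9%, 82.6%, 80.0% and 82.5% of the class's reads in wild type, wild type with erythromycin, the mutant and the mutant with erythromycin. The 4 copies with the highest counts in a library held 61.2% to 63.1% in H2A and 57.7% to 61.1% in H2B. HIST1H4C (chromosome 6, 26103876 to 26104310) had the highest level of all copies, at 11238, 10391, 9024 and 10185 RPKM in the same order of libraries. It alone held 34.7%, 32.3%, 33.6% and 34.7% of H4 reads, so its share of the class moved less than its level.

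HIST1H4H followed HIST1H4C at 6547, 6856, 5445 and 5965 RPKM. HIST1H4B (4651, 4610, 3574 and 4039 RPKM) and HIST1H4E (4444, 4702, 3457 and 4042 RPKM) came next, close together. Their order differed between the treatments, but the Wilson intervals of their shares overlapped in every library. In the treated mutant they had 1252 and 1253 reads. HIST1H4D came after these 4 in every library. Among the 12 H4 copies, mean level and GC content at the third codon positions had a Spearman coefficient of −0.72, against −0.0044 over the 14 H2A and 0.30 over the 18 H2B copies. The copies come from the same 4 libraries, and these coefficients are descriptions.

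The leading H2B copy in every library was HIST1H2BJ (chromosome 6, 27125897 to 27132750), at 7978, 7053, 5614 and 6549 RPKM. It held 23.7%, 24.5%, 20.5% and 23.3% of H2B reads. The next H2B copies were close together: HIST1H2BD was at 3852, 3908, 3873 and 3419 RPKM and HIST1H2BG at 3566, 3703, 3261 and 3556 RPKM. HIST1H2BK was at 4460 RPKM in untreated wild type and at 2888, 3074 and 3133 RPKM in the others, so that it ranked just after HIST1H2BJ in that library and lower in the rest.

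No H2A copy led in all libraries. HIST1H2AE was at 4227, 3610, 3616 and 3430 RPKM, HIST1H2AC at 3609, 3655, 3144 and 3035, and HIST1H2AH at 3779, 3414, 2898 and 3220. HIST1H2AG (chromosome 6, 27133042 to 27135291) was at 4017, 3508, 3864 and 5374 RPKM, first among H2A copies in both mutant libraries. Its share of H2A reads was 15.9%, 15.3%, 17.5% and 22.6%, and the Wilson interval of the last value (21.7% to 23.4%) lay above those of the other 3 libraries. Spearman coefficients of copy levels between any pair of libraries were 0.925 to 0.969 over H2A, 0.971 to 0.991 over H2B and 0.965 to 0.979 over H4, so the order of the copies changed little between libraries.

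Levels of head-to-head neighbours were compared. The annotation holds 12 H2A and H2B pairs that point away from each other with starts 219 to 331 bases apart. In 10 of them both copies averaged 20 RPKM or more, and in 6 of these 10 the copies were within 2-fold of each other in all 4 libraries. Of the 159 combinations of an H2A and an H2B copy at that level that are not neighbours, 37 (23.3%) were. Combinations share copies, so these shares are descriptions. The Spearman coefficient of mean level over the 10 pairs was 0.83. HIST1H2BC over HIST1H2AC gave ratios of 0.806 to 0.980, HIST1H2BG over HIST1H2AE 0.844 to 1.04, and HIST1H2BK over HIST1H2AH 0.846 to 1.18.

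Some pairs were uneven in a fixed direction. HIST2H2BE on chromosome 1 was 2.22 to 3.92 times HIST2H2AC, while HIST1H2BF was only 0.201 to 0.276 of HIST1H2AD and HIST1H2BL 0.223 to 0.409 of HIST1H2AI. Each of these pairs holds a copy of uncertain level that shares over 50% of its windows (HIST2H2BE, HIST1H2AD, HIST1H2AI and HIST1H2BL). HIST1H2BK, of the even pairs, is another such copy. Whether the placing of shared reads made pairs even or uneven was not tested. HIST1H2BJ was 1.99 and 2.01 times HIST1H2AG in untreated and treated wild type, and 1.45 and 1.22 times in the mutant. HIST1H2AA and HIST1H2BA, both low, form another pair. HIST1H2BM lies beside the unlisted HIST1H2AJ and was at 11.5, 13.4, 8.68 and 7.93 RPKM.

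**Figure D2:**
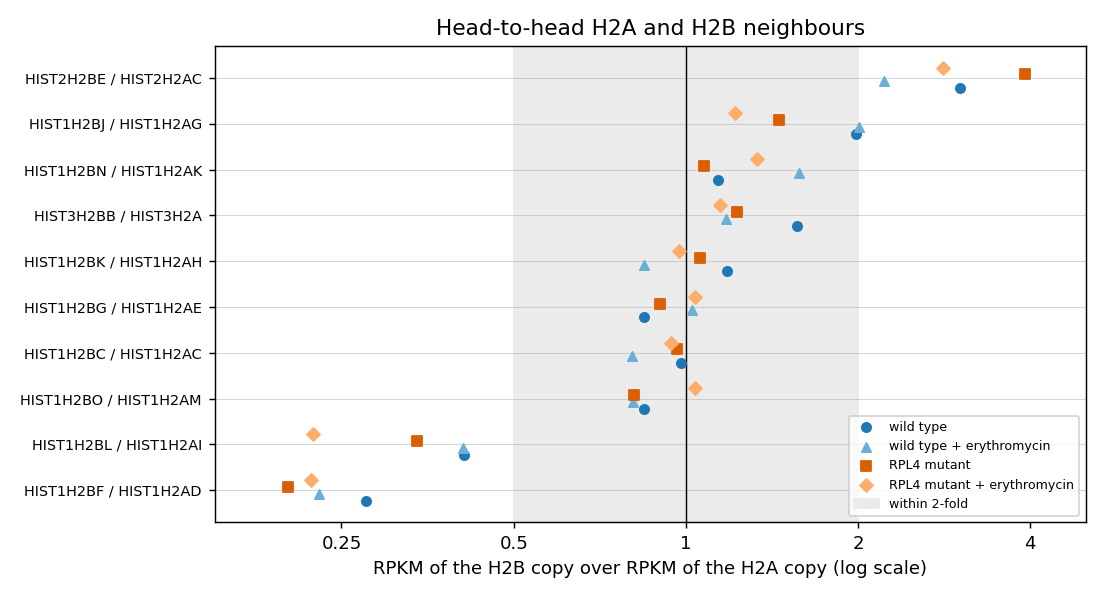
Level of the H2B copy over that of its head-to-head H2A neighbour (RPKM ratio, log axis) for the 10 pairs with both copies averaging 20 RPKM or more, with 1 point per library and the range within 2-fold shaded. In 6 pairs all 4 points lie in the shaded range, HIST2H2BE lies above it and HIST1H2BL and HIST1H2BF lie below. Levels of HIST2H2BE, HIST1H2AD, HIST1H2AI, HIST1H2BL and HIST1H2BK are uncertain because each shares over 50% of its windows with other genes.

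The DNA before a high and a low H2B copy is shown because both hold matches to the same motifs when either strand is counted. Both are the 250 bases before the annotated start in RefSeq (GRCh38.p14), 5′ to 3′ on the gene's strand, and capitals mark ATTTGCAT (the octamer bound by POU factors), CCAAT and TATAAA on either strand.
HIST1H2BJ: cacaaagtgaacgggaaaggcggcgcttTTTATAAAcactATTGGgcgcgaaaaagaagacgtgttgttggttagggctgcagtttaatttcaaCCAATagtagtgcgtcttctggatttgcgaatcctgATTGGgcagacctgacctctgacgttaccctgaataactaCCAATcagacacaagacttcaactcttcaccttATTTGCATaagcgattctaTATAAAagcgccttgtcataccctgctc
HIST1H2BM: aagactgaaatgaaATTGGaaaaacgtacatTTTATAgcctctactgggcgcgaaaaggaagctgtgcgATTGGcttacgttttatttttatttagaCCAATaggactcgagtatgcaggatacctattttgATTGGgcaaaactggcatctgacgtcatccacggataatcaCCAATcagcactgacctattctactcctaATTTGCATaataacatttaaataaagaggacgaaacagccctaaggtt
HIST1H2BJ (chr6:27132796-27133045, minus strand) held 1 octamer, 4 CCAAT and 3 TATAAA matches, with 1 overlap between TATAAA on opposite strands. HIST1H2BM (chr6:27814772-27815021, plus) held 1 octamer, 5 CCAAT and 1 TATAAA match, at a level far below that of HIST1H2BJ. The TATAAA match of HIST1H2BM lay on the opposite strand and far from the start. HIST1H2BJ had 1 on the gene's strand near the start, so the placement of this motif differed between the copies.

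Promoter windows from 250 bases before to 50 after the start were found for 47 of the 50 protein-coding copies. HIST1H2AH, HIST1H4A and HIST1H4C had none in the table. The octamer was in 11 of 16 H2A (68.8%), 14 of 18 H2B (77.8%) and 0 of 13 H4 windows, against 1.77% of all 35116 windows of that length. CCAAT was in 16 of 16, 18 of 18 and 3 of 13, against 34.6% of all. TATAAA was in 12 of 16 H2A, 12 of 18 H2B and 7 of 13 H4 windows, against 11.5%. The windows of head-to-head neighbours overlap and are not separate observations, and a match is not evidence of a bound factor.

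The first comparison set erythromycin against none in wild type cells. Each ratio is a log2 ratio of reads, or of RPKM + 1 for medians and 2-fold counts, centred on the median of the 9612 genes averaging 5 RPKM or more, with a 95% counting interval in brackets. Of the 44 copies, 40 passed that filter (13 of H2A, 17 of H2B, 10 of H4), and HIST1H2AA, HIST1H2BA, HIST1H4F and HIST1H4G did not. Summed H2B was lower with the drug at −0.21 [−0.23, −0.19] and summed H2A at −0.13 [−0.15, −0.10], while summed H4 was at 0.00 [−0.02, 0.03]. Copy medians were −0.17 in H2B, −0.13 in H2A and −0.05 in H4. With 1 library per group none of these ratios has a replicate check, and footprints do not separate mRNA level from translation, nor fewer cells in S phase from less histone RNA in each.

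The lower H2B total in wild type with erythromycin came with wide differences between its copies. Of copies averaging 20 RPKM or more, HIST1H2BK was the lowest, at 4460 RPKM without the drug and 2888 with it (−0.61 [−0.68, −0.55]). HIST2H2BE went from 3148 to 2195 RPKM (−0.51 [−0.58, −0.43]) and HIST3H2BB from 3027 to 2162 (−0.47 [−0.55, −0.39]), whereas HIST1H2BD (0.04 [−0.03, 0.10]) and HIST1H2BG (0.07 [0.00, 0.13]) were near 0. Without copies that shared over 50% of windows, the H2B total was at −0.14.

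Over the 40 copies in wild type with erythromycin, 0 were at least 2-fold higher (1.73% of all genes) and 2 were at least 2-fold lower (1.54% of all genes). Those 2 were HIST1H4I, with 17 reads without and 6 with the drug, and HIST1H4L, with 15 and 4. A counting interval above 0 was found for 6 copies (14.2% of all genes) and below 0 for 18 (13.9% of all genes): 8 of H2A, 7 of H2B and 3 of H4. Intervals narrow with the number of reads, so these shares depend on depth. Of the 40, 27 were below the median gene, against 50.0% of all genes. Of copies averaging 20 RPKM or more, HIST1H4J was the highest, at 537 RPKM without the drug and 739 with it (0.47 [0.30, 0.65]).

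In the mutant, the erythromycin ratios were closer to 0 or above it. Summed H2A was at 0.06 [0.01, 0.11], H2B at −0.02 [−0.06, 0.03] and H4 at 0.08 [0.03, 0.13], with copy medians of −0.02, 0.07 and 0.01. The H2A total rested on HIST1H2AG, without which it was −0.03. HIST1H2AG went from 3864 RPKM without to 5374 with the drug (0.42 [0.31, 0.54]) and HIST1H2AI (chromosome 6, 27808199 to 27808701) from 884 to 1268 (0.47 [0.23, 0.71]). HIST1H4J, high in wild type with the drug, was here the lowest of copies averaging 20 RPKM or more, at 1357 RPKM without and 990.5 with erythromycin (−0.51 [−0.75, −0.26]).

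Counts in the mutant with erythromycin were low. Of the 40 copies, 1 was at least 2-fold higher (6.22% of all genes) and 2 were at least 2-fold lower (3.39% of all genes). The higher one, HIST1H2BE, had 14, 7, 0 and 6 reads in the 4 libraries, and the lower ones, HIST1H4I and HIST1H4L, had 4 and 2 reads without and 1 each with the drug. Intervals lay above 0 for 6 copies (7.22% of all genes) and below 0 for 6 (7.69%), and 21 were below the median gene. By the naming rule the highest copy was HIST1H2BB at 17.4 RPKM without the drug and 26.4 with it (0.53), and its interval for reads was [−1.24, 2.68].

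**Figure D3:**
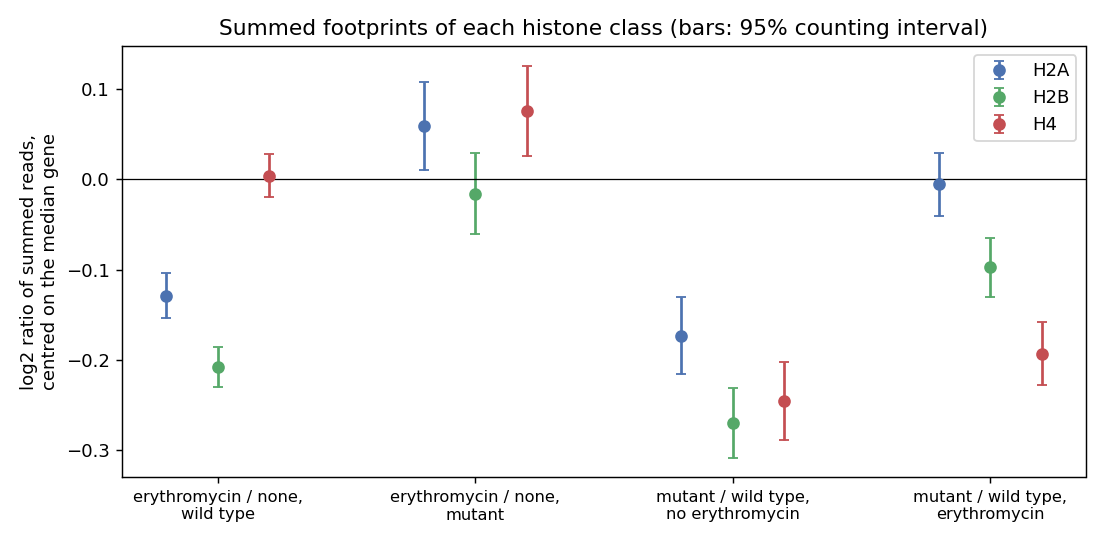
Log2 ratio of reads summed over the copies of H2A, H2B and H4 in the 4 comparisons, centred on the median gene, with bars for the 95% counting interval. Without erythromycin the mutant lies below wild type for each class (−0.17, −0.27 and −0.24), and with erythromycin H2A lies at −0.01, H2B at −0.10 and H4 at −0.19.

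The difference between the erythromycin ratios, mutant minus wild type, was 0.18 [0.13, 0.24] for H2A, 0.19 [0.14, 0.24] for H2B and 0.07 [0.01, 0.12] for H4. Leaving out the copy with the most reads gave 0.08 for H2A and −0.01 for H4, so the H4 value rested on HIST1H4C, and the H2A value was smaller without HIST1H2AG. For H3 the same difference was 0.32 [0.26, 0.38]. Of the 40 copies, 2 had a difference of at least 2-fold upward (8.29% of all genes; HIST1H2BE and HIST1H2BI, both of the low set) and 1 downward (5.6%; HIST1H4I), and HIST1H4J was just inside that limit at −0.98. All 4 libraries enter each of these values once, and no spread between cultures stands behind them.

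The mutant without erythromycin was lower than wild type in each class. Summed H2B was at −0.27 [−0.31, −0.23], H4 at −0.24 [−0.29, −0.20] and H2A at −0.17 [−0.22, −0.13], with copy medians of −0.21, −0.28 and −0.12. Of the 40 copies, 33 were below the median gene (50.0% of all genes) and 17 had an interval below 0 (9.3% of all genes), 6 of H2A, 5 of H2B and 6 of H4. HIST3H2BB on chromosome 1 was the lowest of copies averaging 20 RPKM or more, at 3027 RPKM in wild type and 1936 in the mutant (−0.62 [−0.76, −0.48]). HIST1H4C (−0.29 [−0.37, −0.22]), HIST1H4H (−0.24 [−0.34, −0.14]), HIST1H4B (−0.35 [−0.47, −0.24]) and HIST1H4E (−0.34 [−0.46, −0.22]) lay close together, so the 4 main H4 copies were lower by like amounts.

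HIST1H4J had the highest ratio of the H4 copies in untreated cells, and HIST1H4I, with 17 and 4 reads, was the other one above 0. HIST1H4J had 497 reads (537 RPKM) in wild type and 256 reads (1357 RPKM) in the mutant, a log2 ratio of 1.36 [1.14, 1.58], and was the only 1 of the 40 at least 2-fold higher in the mutant (5.29% of all genes). HIST1H2AI, at 742 RPKM in wild type and 884 in the mutant (0.28 [0.05, 0.50]), was the other copy with an interval above 0 (9.49% of all genes). At least 2-fold lower were HIST1H2BE and HIST1H2BI (3.32% of all genes), both at 12.4 RPKM or less.

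With erythromycin in both arms, the mutant was lower than wild type for H4 (−0.19 [−0.23, −0.16]), less so for H2B (−0.10 [−0.13, −0.07]), and for H2A the interval held 0 (−0.01 [−0.04, 0.03]). The H2A value ranged from −0.13 without HIST1H2AG to 0.07 under other scalings, the H2B value from −0.16 to −0.02 and the H4 value from −0.24 to −0.11. These ranges leave out centring on genes averaging 20 RPKM or more, which was not run for class totals. In this comparison that centring moved HIST1H4C from −0.09 to 0.02, so the sign of the H2B value may depend on the centring. Copy medians were −0.15 in H2A, −0.09 in H2B and −0.27 in H4. None of the 40 was at least 2-fold higher (7.02% of all genes) and only HIST1H4I was at least 2-fold lower (2.26% of all genes), with 6 reads in wild type and 1 in the mutant. An interval below 0 was found for 20 copies (16.9% of all genes) and above 0 for 4 (16.1%), namely HIST1H2AG, HIST1H2AI, HIST1H4J and HIST2H2BE. Both counts use the main centring. Copies near 0 can change sides with another centre, as HIST1H4C did, so the counts depend on it as well.

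Of copies averaging 20 RPKM or more, HIST1H2AI was the highest in that comparison, at 638 RPKM in wild type and 1268 in the mutant (0.93 [0.76, 1.10]). HIST1H2AG followed at 3508 and 5374 RPKM (0.55 [0.47, 0.63]). These copies have 92.6% identical coding sequence and share 12 windows of 28 bases. HIST1H4A was the lowest of copies averaging 20 RPKM or more, at 877 and 674 RPKM (−0.44 [−0.67, −0.22]). The H2A total therefore combined 2 copies well above 0 with 11 of 13 below the median gene. That count depends on the centre. With centring on genes averaging 20 RPKM or more, the H2A copy median was −0.035 in place of −0.15.

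**Figure D4:**
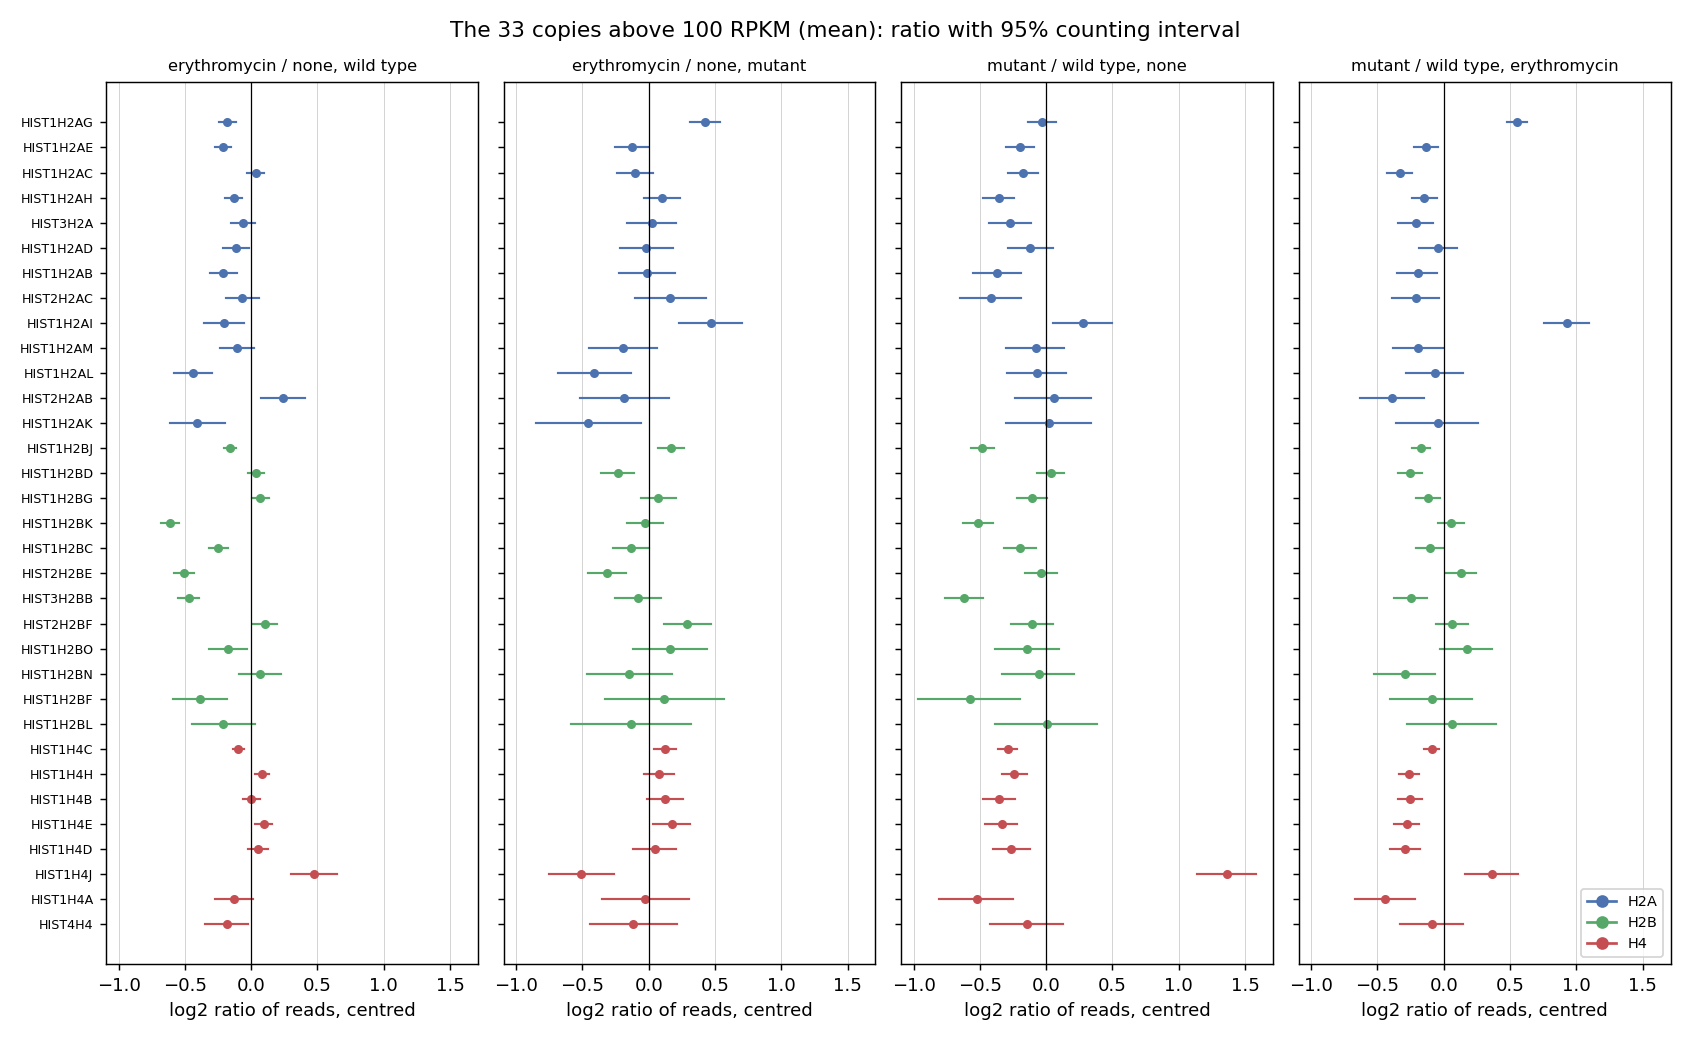
Log2 ratio of reads for the 33 copies of the high set in the 4 comparisons, centred on the median gene, with lines for the 95% counting interval and colour for the class. HIST1H4J lies at 1.36 in the mutant without erythromycin, and HIST1H2AG and HIST1H2AI lie at 0.55 and 0.93 in the mutant with it.

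Of copies averaging 20 RPKM or more, those highest in the mutant were among the ones that share sequence with unlisted genes. HIST1H4J shares all of its coding windows with HIST1H4K, and HIST1H2AI shares 83.3% with HIST1H2AJ, and neither partner was listed in any library. HIST1H2AG shares 25.1%, mostly with other listed copies. The other copies with the most sharing have partners of another kind, HIST1H2BK (88.1%) mostly the listed H2BFS and HIST1H2AD (98.4%) an overlapping gene model. For mutant over wild type, HIST1H2BK was at −0.51 without and 0.06 with erythromycin, and HIST1H2AD at −0.12 and −0.04. HIST2H2AC, which shares 42.7% with the unlisted HIST2H2AA3, was at −0.42 without and −0.21 with erythromycin. Not every copy that shares sequence with an unlisted gene was therefore higher in the mutant. Whether reads of HIST1H4K or HIST1H2AJ were counted on HIST1H4J or HIST1H2AI was not tested.

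**Figure D5:**
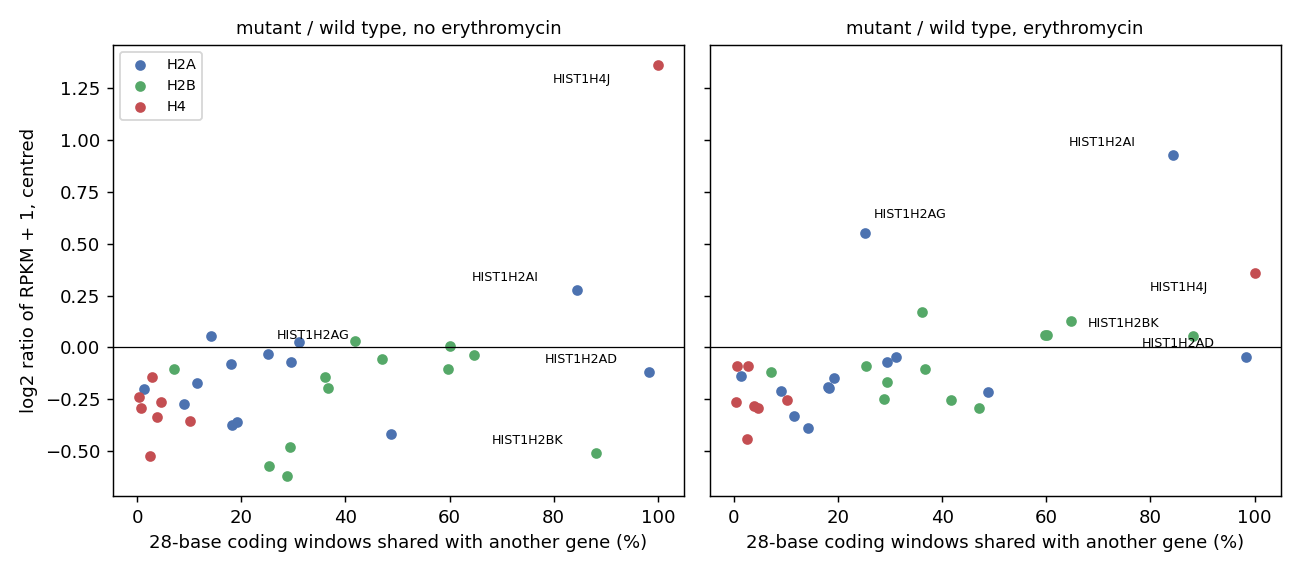
Log2 ratio of mutant over wild type (RPKM + 1, centred on the median gene) without and with erythromycin against the percent of 28-base coding windows that a copy shares with another gene, for the 33 copies of the high set. HIST1H4J at 100% and HIST1H2AI at 84.4% lie above 0 in both panels, and HIST1H2BK at 88.1% lies at −0.51 without and 0.06 with erythromycin.

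Effects over both arms were examined with limma, an additive model of genotype and treatment with 1 residual degree of freedom, which sets 2 libraries against 2 and is exploratory. For genotype, 1 of the 40 copies rose (1.72% of all genes) and 0 fell (0.302% of all genes). HIST1H4J rose by 0.88 (SE 0.20, limma, adjusted p = 0.0288). The call was lost with each library centred on its median gene (adjusted p = 0.0663), without the variance trend (0.409) and with genotype alone in the model (0.211), and over all settings tried the adjusted p was 0.000209 to 0.409. HIST1H2AI, at 0.62 (SE 0.19, limma, adjusted p = 0.129), passed only with other filters on low values, at 0.0337 without one and 0.0366 with the filter at 20 RPKM. At an unadjusted p under 0.05, HIST1H2BJ, HIST1H4A, HIST1H4B, HIST1H4E and HIST3H2BB were lower in the mutant (5.45% of all genes) and HIST1H2AI and HIST1H4J higher (7.1%).

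For erythromycin over both genotypes, 0 of the 40 copies rose (0.26% of all genes) and 0 fell (0.0104% of all genes) in limma. At an unadjusted p under 0.05, HIST1H2BE was higher (4.07% of all genes), and HIST1H2AK, HIST1H2AL, HIST2H2BE, HIST1H4I and HIST1H4L were lower (2.16%). In wild type HIST1H2AL went from 897 to 656 RPKM with the drug, and in the mutant from 838 to 653. HIST1H2AK was at 417 and 312 in wild type and at 417 and 315 in the mutant, so both copies were lower with the drug by like amounts in each genotype. The additive model takes the genotype difference in drug response as its error. Copies picked by a low p therefore tend to be alike in this way, and the likeness is not separate support.

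Genes that make and process histone mRNA did not pass the test. Of 29 such genes 25 were tested and 0 rose or fell for either factor. Over all genes, 1.72% rose and 0.302% fell for genotype, and 0.26% rose and 0.0104% fell for erythromycin. At an unadjusted p under 0.05 for genotype, 1 of the 25 was higher (7.1% of all genes) and 1 lower (5.45%). SLBP, which binds the stem-loop of histone mRNA, was at 168, 175, 159 and 156 RPKM. SYMPK, a scaffold of the cleavage complex, was at 108, 251, 564 and 298 RPKM, with a mutant effect of 1.31 (SE 0.33, limma, adjusted p = 0.0518), and it passed only with no filter or with the filter at 20 RPKM.

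Chaperones and carriers of histones gave 0 of 19 called for either factor, with 4 lower (5.45% of all genes) and 1 higher (7.1%) at an unadjusted p under 0.05 for genotype. Mutant over wild type, their median was −0.13 in untreated and −0.42 in treated cells, where the median gene is 0. NPM1, which also works in ribosome assembly, was at 2284, 2931, 2051 and 1624 RPKM. NCL, another nucleolar protein, was at 517, 691, 447 and 386 RPKM. For both, the treated mutant library was the lowest and the treated wild type library the highest.

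Of 20 S phase genes, 1 rose in the mutant (1.72% of all genes) and 0 fell (0.302%). For erythromycin 0 rose (0.26% of all genes) and 0 fell (0.0104%). CDT1, which licenses replication origins, was at 167, 155, 401 and 248 RPKM (0.97, SE 0.22, limma, adjusted p = 0.0264), and over the other settings its adjusted p was 0.000167 to 0.331, past 0.05 in the same 3 settings as for HIST1H4J. TYMS, which makes thymidylate, was at 771, 732, 597 and 642 RPKM, and RRM2, a subunit of ribonucleotide reductase, was at 551, 617, 483 and 467 RPKM. The S phase medians for mutant over wild type were −0.14 without and −0.29 with erythromycin.

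Of the other replication-dependent histones, 2 of 11 tested H3 copies fell in the mutant (0.302% of all genes) and 0 rose (1.72%). HIST1H3I was at 160, 95.2, 20.1 and 9.80 RPKM (−3.04, SE 0.26, limma, adjusted p = 1.33e-06), and HIST1H3F was at 82.9, 44.7, 8.05 and 31.8 RPKM (−1.85, SE 0.43, limma, adjusted p = 0.0344). HIST1H3I passed under all 7 other settings of the model (largest adjusted p 0.0268), and HIST1H3F did not under 4 of them (up to 0.379). In both copies the mutant libraries lay below the wild type libraries, and both copies are minor beside HIST1H3B, at 12365, 10084, 8267 and 8190 RPKM, and HIST1H3H, at 7088, 5685, 5816 and 7009 RPKM. Summed H3 was at −0.45 [−0.50, −0.40] in the untreated mutant and at −0.15 [−0.19, −0.11] in the treated one. None of 4 tested linker histone H1 genes passed for either factor. HIST1H1E was at 10057, 9811, 7918 and 8521 RPKM and HIST1H1C at 7923, 8342, 7333 and 7360 RPKM. Of 6 tested relatives listed as replication-independent, 0 passed, with H2AFZ at 3437, 3106, 2693 and 2752 RPKM and H2AFX at 1916, 1995, 1670 and 1692 RPKM.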

How the data were processed

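Footprints were measured in 4 libraries, 1 per group. The deposited files hold 1 RPKM value per transcript, made by the authors. Per the submitters' processing notes, cutadapt, STAR and GRCh38 were used. Which counter and annotation served is not given in the sources used here. A transcript missing from a file was read as 0. RPKM times GENCODE 29 coding length gave whole reads (within 0.001) for 99.2% of matched transcripts in each library, from which depths and counts were recovered, and for all 44 copies. 120 transcripts stayed unmatched. Ratios used log2(RPKM + 1) for genes averaging 5 RPKM or more, centred on their median. Class totals used summed reads with exact conditional binomial intervals (95%). The uncentred median gene moved by at most 0.07 (log2). limma 3.58.1 (R 4.3.3) was fitted to all 9612 genes, uncentred, with Benjamini-Hochberg adjustment at 0.05, and tested on simulated data. Python 3.11.15 did the rest.

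The rule named RPL4, the 4 highest copies per class, the highest and lowest at 20 RPKM or more in each comparison, unlisted copies, limma calls, and the 2 highest genes of each other list; HIST2H2BE, HIST1H2AK, HIST1H2AL, HIST1H2BD, the low copies and the pairs were described after their values were seen. Members and gene lists were chosen with earlier results of these data known. Alternatives covered pseudocount, filter, centring, scaling, depth, shared windows and the limma model.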

Additional observations from a re-analysis of the deposited data

Results flagged for a closer look

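The erythromycin ratio lay on opposite sides of 0 in wild type and mutant, with both counting intervals off 0, for 1 class total and for 5 of the 40 copies past the filter (12.5%), against 2.91% of the 9469 genes with recovered reads. Intervals narrow with depth, so this share depends on the number of reads. The difference was not tested against replicates, since each group had 1 library. Values are given for wild type first and the mutant next. The H2A total had −0.13 [−0.15, −0.10] and 0.06 [0.01, 0.11], a difference of 0.18. Without HIST1H2AG the H2A total in the mutant was −0.03 and the difference 0.08, so this result is not separate from that of HIST1H2AG. HIST1H2AG had −0.18 [−0.24, −0.12] and 0.42 [0.31, 0.54], a difference of 0.60. HIST1H2AI had −0.20 [−0.35, −0.05] and 0.47 [0.23, 0.71], a difference of 0.67. HIST1H2BJ had −0.16 [−0.21, −0.12] and 0.17 [0.07, 0.27], a difference of 0.33. HIST1H4C had −0.10 [−0.14, −0.06] and 0.12 [0.04, 0.21], a difference of 0.22. HIST1H4J went the other way, with 0.47 [0.30, 0.65] and −0.51 [−0.75, −0.26], a difference of −0.99. HIST1H2AG and HIST1H2BJ are head-to-head neighbours.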

How the results depend on the processing

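No paired analysis was possible because the labels give no replicate numbers that could serve as a block. The limma model carries the other factor as a term, and 1 factor alone is its alternative below. With 1 library per group, none could be left out of a fit with both factors. Class totals that moved are given by alternative, and the cause was not tested. Uncentred, H2A was at 0.11 for erythromycin in the mutant, 0.057 for mutant over wild type with erythromycin and 0.26 for the difference of the erythromycin ratios. H2B was then at 0.037, −0.035 and 0.26, and H4 at 0.13, −0.13 and 0.14. With upper quartile scaling, erythromycin in wild type gave −0.16 (H2A), −0.24 (H2B) and −0.029 (H4), mutant over wild type with erythromycin 0.073, −0.019 and −0.11, and the difference 0.24, 0.25 and 0.13. Scaled without the 14 transcripts over 0.5% of a library, mutant over wild type with erythromycin gave 0.068, −0.024 and −0.12, and H2B without erythromycin −0.23.

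Without the copy with the most reads, H2A reversed to −0.032 for erythromycin in the mutant, and stood at −0.13 for mutant over wild type with erythromycin and 0.083 for the difference. H2B was then at −0.068 for erythromycin in the mutant and −0.21 for the untreated mutant. H4 was at 0.055 for erythromycin in wild type and −0.24 for the treated mutant, and its difference reversed to −0.0073. Over copies with at most 50% of windows shared, H2A was at −0.044 for the treated mutant, H2B at −0.14 for erythromycin in wild type, −0.16 for the treated mutant and 0.13 for the difference, and H4 at −0.30 for the untreated mutant. Thinned to 604506 reads per library, erythromycin in wild type gave −0.16 (H2A) and −0.26 (H2B, median −0.35), and the untreated mutant −0.31 (H2B).

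With the filter raised to a mean of 20 RPKM, copy medians for mutant over wild type with erythromycin were −0.035 (H2A) and −0.15 (H4), the H4 median for erythromycin in wild type was 0.012, and HIST1H4C in the treated mutant reversed to 0.021. Class totals were not recentred with this filter. Copies at or beyond 2-fold then numbered 0 for erythromycin in either genotype and 1 in the untreated mutant. With a pseudocount of 5 RPKM they numbered 1 for erythromycin in wild type and 0 in the treated mutant. In the treated mutant they numbered 2 with a pseudocount of 0.1, 2 with a filter at 1 RPKM, 3 with no filter, 2 uncentred and 5 thinned. In limma, copies that rose in the mutant numbered 2 with no filter, 2 with a filter at 20 RPKM, and 0 without the variance trend, with 1 factor alone, or with libraries centred on their median gene, an alternative chosen after seeing the data. With no filter 1 copy fell with erythromycin (HIST1H4I) and 1 in the mutant (HIST1H2AA). For the counts in this paragraph, the share of all genes under the same setting is not given here. They show only how the counts depend on the setting and are not results about the histone copies.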
